A study of Drosophila melanogaster with 8 samples.

Results

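Glutathione S-transferases (GSTs) and UDP-glycosyltransferases (UGTs) were examined in the heads of fed and starved adult male flies. The genes were taken by symbol from the deposited gene table. Every symbol that started with Gst, a class letter and a digit was a GST, and every symbol that started with Ugt and a digit was a UGT. This gave 52 genes of the 17518 named genes in the table, 35 GSTs and 17 UGTs. Both conditions used w1118 males, a white-eyed laboratory strain that carries a deletion in the white gene, aged 1 to 3 d. For 1 day they were kept either on food (sucrose and yeast in agar) or under starvation (agar alone), and 4 biological replicates of 30 flies were taken per condition. RNA from heads was sequenced as paired-end poly(A)+ libraries, and the deposited values were raw counts of reads per gene. Library totals ranged from 47936038 to 53168449 counts.

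GSTs join the tripeptide glutathione to reactive or foreign compounds, and UGTs join a sugar from a UDP-sugar donor to small fat-soluble compounds. Both make their substrates easier to excrete, and together with cytochrome P450s and esterases they form the core of insect detoxification. The cytosolic GSTs of flies fall into 6 classes. The Delta and Epsilon classes belong to insects and other arthropods and are known for insecticide metabolism and for handling products of lipid peroxidation. The Omega, Sigma, Theta and Zeta classes are shared with vertebrates. In the fly head, enzymes of both kinds are known from the fat body, glia, sensory organs and eye.

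Most of the Epsilon genes and several Delta genes were lower under starvation, as were 5 of the 14 UGTs tested. Of the 35 GSTs, 31 had at least 10 counts in 4 or more of the 8 libraries and were tested. Among them 18 were lower, 2 were higher and 11 did not pass (adjusted p under 0.05, edgeR quasi-likelihood test with Benjamini-Hochberg adjustment over all 12130 genes tested). Over all genes tested, 26.6% were called, 16.6% lower and 9.97% higher. A change of at least 2-fold was called for 9 GSTs, all lower, against 5.34% of all genes lower and 0.94% higher by that margin. The median log2 fold change of starvation against food was -0.61 over the 31 GSTs, with a range of -2.80 to 0.60, and -0.01 over all genes tested. GstD4 passed the count minimum only through the food libraries, and without it 17 of 30 GSTs were lower, 8 of them by 2-fold, with a median of -0.61.

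Of the 17 UGTs, 14 were tested. In the same test 5 were lower, none was higher (0 of 14) and 9 did not pass. An unadjusted p under 0.05 was found for 7 of the 14, and for 4466 of all 12130 genes tested. DESeq2 and limma-voom also called 0 UGTs higher. At least a 2-fold change was called for 2 of them, both lower. The median was -0.32. The 5 genes called out of 14 were a larger share than the 16.6% called lower among all genes, but the count is small, and it dropped to 3 when food replicate 2, food replicate 3 or starvation replicate 4 was left out, and to 3 when libraries were scaled by their upper quartile.

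**Figure D1:**
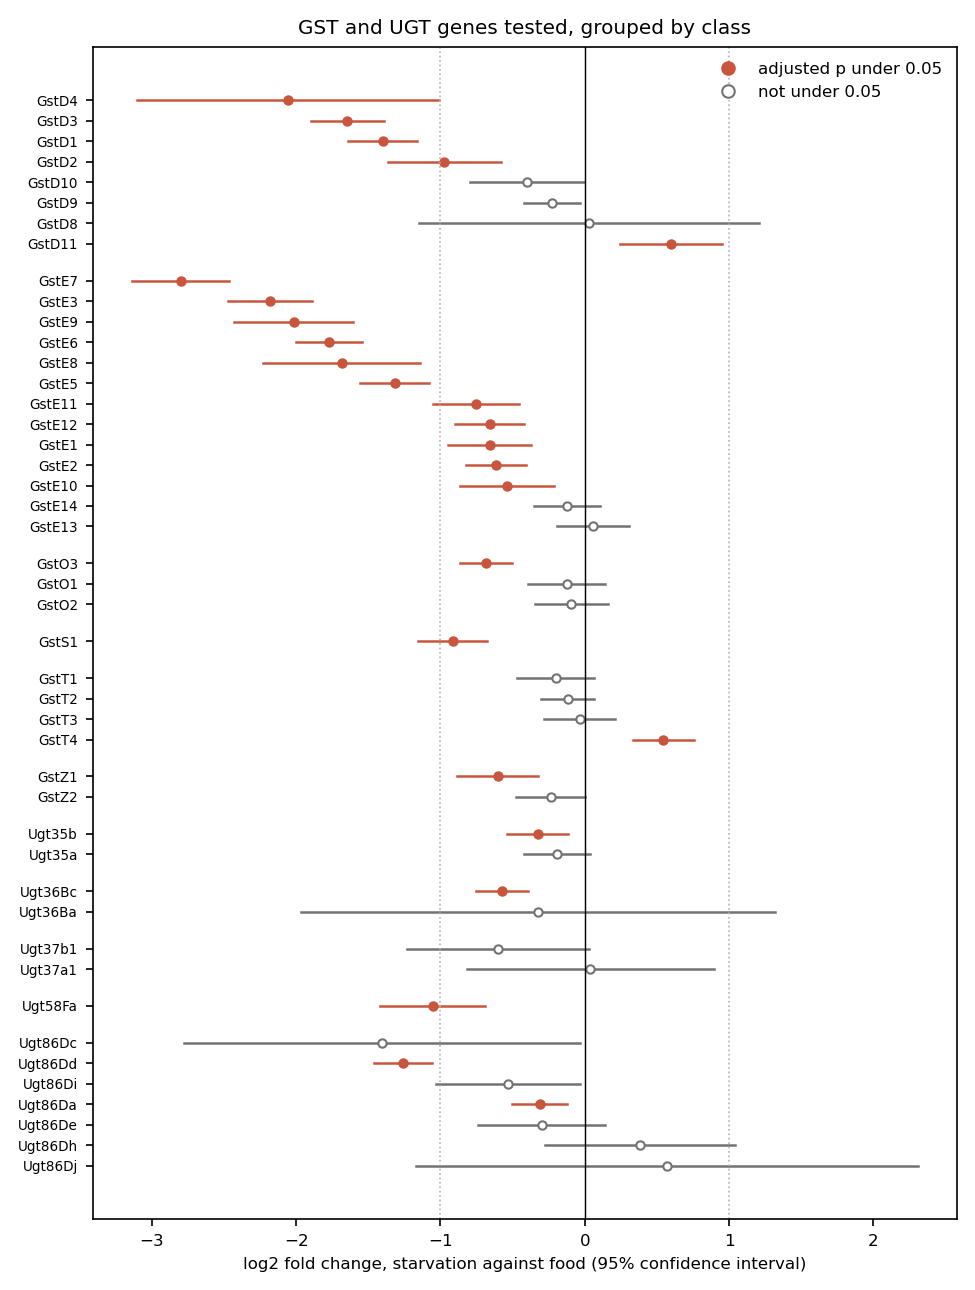
Log2 fold change of starvation against food with its 95% confidence interval for the 31 GSTs and 14 UGTs tested, grouped by class and ordered by size within a class. Filled red points had an adjusted p under 0.05, open grey points did not, and dotted lines mark a 2-fold change. GstE7 lay lowest at -2.80, and GstD11 and GstT4 were the only called genes above 0.

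The libraries were not equally alike. Starvation replicate 3 stood apart, with 25.6% of its counts in its 10 most abundant genes and 21.9% from mitochondrial genes, against 17.7% to 20.3% and 14.1% to 16.6% in the other libraries. It was the highest starvation library for 25 of the 31 GSTs tested, and for 39.2% of all genes. Without it 22 GSTs and 6 UGTs were lower, and the GST median was -0.69. The genes added were GstD9 (adjusted p = 0.0027), GstE14 (0.025), GstZ2 (0.030), GstO2 (0.039) and Ugt35a (0.034). Starvation replicate 4 was the lowest starvation library for 19 GSTs, and for 26.3% of all genes. Food replicate 4 was the lowest food library for 17 GSTs, and for 31.1% of all genes. GST transcripts were short, with a median exonic length of 890.0 bases against 1894.0 bases over all genes tested, and with the trend of each library with exonic length taken out 19 GSTs and 5 UGTs were lower. The part of RNA quality in the spread between libraries was not tested. The white gene had at most 0.084 CPM in any library, and the strain lacks it.

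Levels are given as CPM, the counts of a gene scaled to the size of its library with TMM factors. Summed over the 35 GSTs, each food library held between 1313 and 1567 CPM (mean 1462 ± 106.9, SD, n = 4). Each starvation library held between 697.3 and 939.5 CPM (794.5 ± 104.3, SD, n = 4). The starvation mean was 54.3% of the food mean, and the conditions did not overlap. Epsilon genes made up 55.6% to 57.8% of the summed GST CPM on food and 46.7% to 50% under starvation. The Theta share went the other way, from between 6.47% and 7.53% on food to between 14.4% and 15.2% under starvation. The Omega share also rose, from between 6.4% and 7.4% to between 9.8% and 10.3%. So did the Zeta share, from between 3.0% and 3.6% to between 4.7% and 5.4%. The mean Omega and Zeta sums themselves fell, to 78.2% and 82.25% of the food means, and the mean Theta sum rose to 118.3%. Within Theta only GstT4 had a higher mean, 73.0 CPM under starvation against 50.05 CPM on food. The means of GstT1, GstT2 and GstT3 were lower under starvation. The 17 UGTs together held 247.9 to 285.2 CPM on food and 185.3 to 215.7 CPM under starvation, so that the starvation mean was 75.4% of the food mean. In RNA from whole heads, fewer cells of a type and less RNA per cell cannot be told apart.

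**Figure D2:**
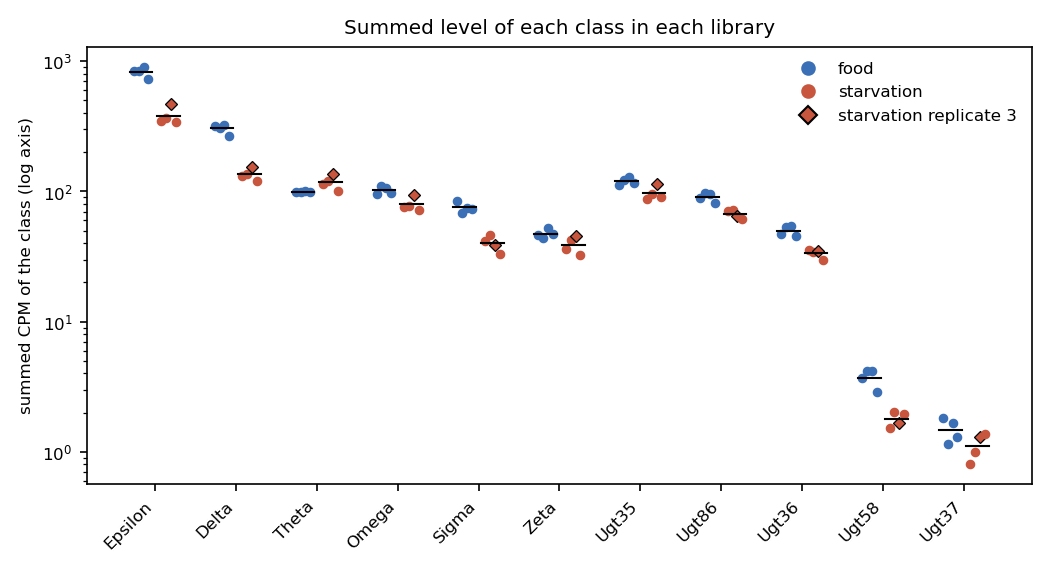
Summed CPM of each GST class and UGT family in each library on a log axis, with food in blue, starvation in red, black bars at the means of 4 libraries and starvation replicate 3 as a diamond. The Epsilon and Delta sums did not overlap between conditions, whereas the Theta sum was above the whole food range in 3 of 4 starvation libraries.

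The Epsilon class was the largest and the one with most changes. It had 14 genes, of which 13 were tested, 11 were lower, none was higher and 6 were lower by at least 2-fold. GstE1 to GstE10 lie side by side on chromosome 2R, from 18396638 to 18409835 on release 6 of the genome, within 13198 bases. The genes follow each other in the order GstE10, GstE1, GstE2 and then GstE3 to GstE9. All 9 tested genes of the cluster were lower, but by different amounts.

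The 2-fold falls were all in the stretch from GstE3 to GstE9. This stretch was picked out after its values were seen. Its 7 genes together held 338.3 to 490.8 CPM on food and 85.2 to 130.2 CPM under starvation. The other 7 Epsilon genes held 392.0 to 425.1 CPM on food and 253.4 to 339.8 CPM under starvation. The median log2 fold change was -1.90 over the 6 genes tested in the stretch and -0.61 over the 7 others. The boundary lay between GstE2 and GstE3, which are 337 bases apart. GstE2 had a log2 fold change of -0.61 (95% confidence interval -0.82 to -0.41) and GstE3 of -2.18 (-2.48 to -1.89), so that the intervals did not overlap.

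GstE7 had the largest fall of all 45 genes tested. It had 31.8, 32.8, 36.5 and 24.8 CPM in food replicates 1 to 4 and 4.13, 4.54, 5.66 and 3.71 CPM in the starvation replicates. The lowest food library was more than 4 times the highest starvation library. The gene was 6.97-fold lower (log2 fold change -2.80 ± 0.15, SE, edgeR adjusted p = 9.9e-07).

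GstE3 had 95.2, 91.7, 98.0 and 70.7 CPM on food and 18.2, 18.6, 24.1 and 17.3 CPM under starvation. It was 4.54-fold lower (log2 fold change -2.18 ± 0.13, SE, adjusted p = 1.5e-06). Food replicate 4 was the lowest food library and starvation replicate 3 the highest starvation library, a pattern that recurred in most genes of the stretch. GstE9, at the far end of the cluster, was the most abundant Epsilon gene per kilobase of exonic length on food (250.1 CPM per kb). Its levels were 195.9, 194.6, 242.8 and 155.1 CPM on food and 42.9, 52.2, 64.0 and 35.5 CPM under starvation. GstE9 was 4.05-fold lower (log2 fold change -2.02 ± 0.19, SE, adjusted p = 2.3e-05), and 40 of its bases are shared with the gene imd.

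GstE6 lies next to GstE7, 162 bases away. It had 77.6, 93.2, 92.4 and 71.7 CPM on food and 24.3, 23.8, 27.4 and 22.4 CPM under starvation. GstE6 was 3.42-fold lower (log2 fold change -1.77 ± 0.10, SE, adjusted p = 1.2e-06). Its starvation libraries were close together, and the lowest food library lay far above them.

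The remaining genes of the stretch were less abundant. GstE5 had 13.2, 15.0, 14.8 and 11.8 CPM on food and 5.13, 5.67, 6.11 and 5.12 CPM under starvation (log2 fold change -1.32 ± 0.11, SE, adjusted p = 1.1e-05). GstE8 had 5.40, 3.98, 6.28 and 3.53 CPM on food and 1.14, 1.59, 2.11 and 1.11 CPM under starvation (-1.69 ± 0.25, SE, adjusted p = 0.00051). Both genes were lower in every starvation library than in any food library. GstE4 had too few counts to be tested, with at most 42 counts in a library.

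At the other end of the cluster the falls were smaller. GstE1, GstE2 and GstE10 had log2 fold changes of -0.66 (adjusted p = 0.0035), -0.61 (adjusted p = 0.00068) and -0.54 (adjusted p = 0.020). GstE10 shares 127 bases with GstE1, was the only called Epsilon gene whose conditions overlapped, and lost its call in 4 of 19 alternatives. These were upper-quartile scaling and the fits without food replicate 2, starvation replicate 1 or starvation replicate 2, with an adjusted p of at most 0.083. The authors' handling of reads that map to several places was not stated in the sources used here, so reads of near-identical neighbours may have been divided between them.

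**Figure D3:**
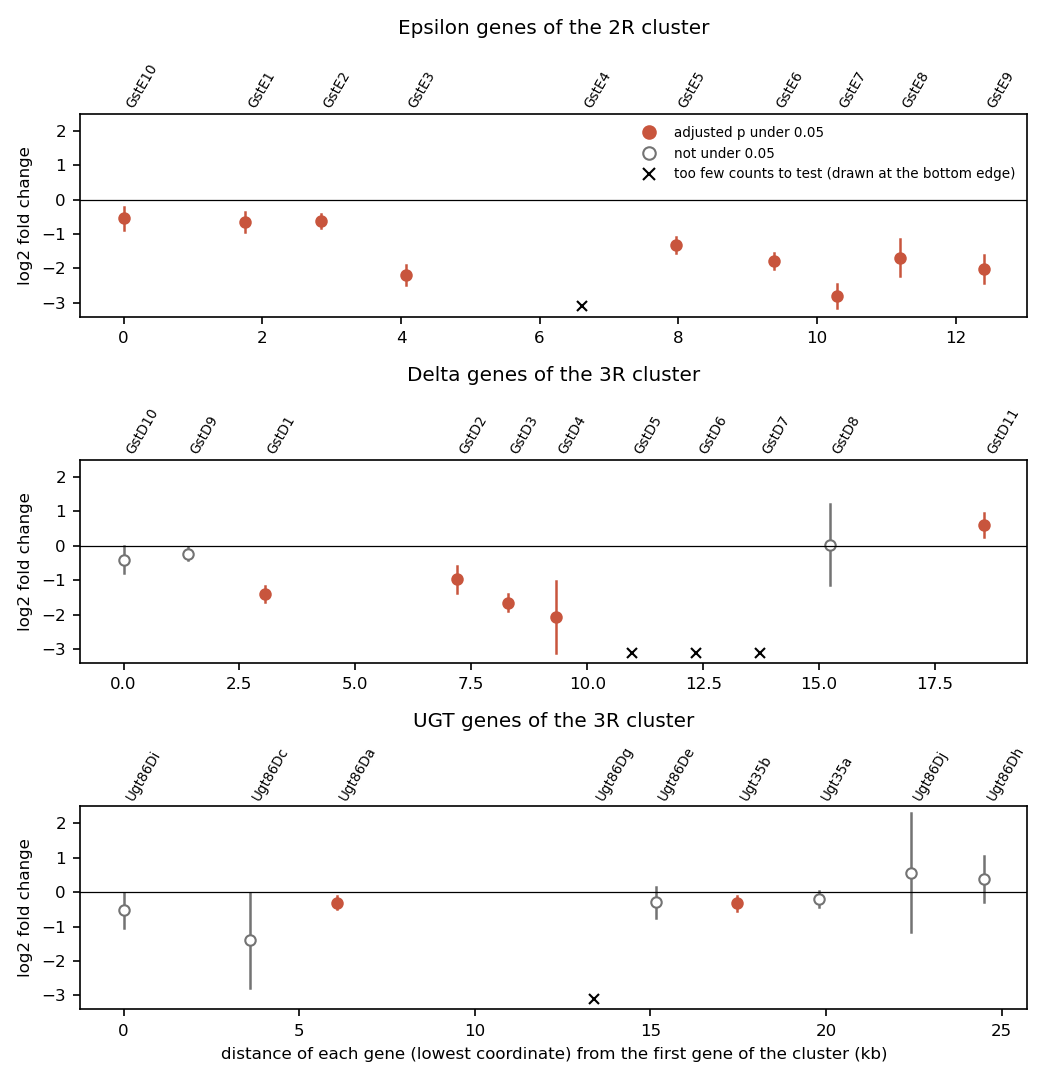
Log2 fold change of starvation against food, with its 95% confidence interval, against the distance of each gene from the first gene in the Epsilon, Delta and UGT clusters, in kb. Filled red points had an adjusted p under 0.05, open grey points did not, and crosses mark genes with too few counts. GstE10, GstE1 and GstE2 lay between -0.66 and -0.54, whereas the tested genes from GstE3 to GstE9 lay between -2.80 and -1.32.

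Outside the cluster, GstE11, GstE12, GstE13 and GstE14 lie singly on the same chromosome arm. GstE12 was the most abundant of these, with 254.7, 240.8, 254.1 and 229.7 CPM on food and 147.5, 146.2, 190.4 and 136.7 CPM under starvation. It was lower by 1.58-fold (log2 fold change -0.66 ± 0.11, SE, adjusted p = 0.0011), and its conditions did not overlap. GstE11 also fell, by 0.75 on the log2 scale (adjusted p = 0.0019). GstE14, known as Noppera-bo and needed for ecdysteroid synthesis in the larval prothoracic gland, had a log2 fold change of -0.12 (95% confidence interval -0.35 to 0.10, adjusted p = 0.44). GstE13 had one of 0.06 (-0.19 to 0.31, adjusted p = 0.78).

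The Delta class lies in a cluster of 11 genes on chromosome 3R, from 12364776 to 12385624. Of 8 Delta genes tested, 4 were lower, 1 was higher and 3 did not pass, and 3 were lower by at least 2-fold. The median log2 fold change was -0.687. Without GstD4, which passed the count minimum only through the food libraries, 3 of 7 were lower, 2 of them by 2-fold. The median was then -0.40.

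GstD1, which is known to break down DDT, was the most abundant GST on food per kilobase of exonic length (271.4 CPM per kb). It had 239.9, 229.5, 245.5 and 200.3 CPM on food and 85.1, 88.0, 100.1 and 73.5 CPM under starvation. No starvation library came near the lowest food library. The gene was 2.64-fold lower (log2 fold change -1.40 ± 0.11, SE, adjusted p = 7.4e-06).

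GstD2 and GstD3 follow GstD1 in the cluster. GstD3 had 32.1, 31.9, 31.8 and 23.0 CPM on food and 8.78, 9.96, 9.91 and 9.27 CPM under starvation, and was 3.13-fold lower (log2 fold change -1.65 ± 0.12, SE, adjusted p = 4.2e-06). Food replicate 4 lay below the other food libraries and far above all starvation libraries. GstD2 was just short of the 2-fold margin, with 3.59, 3.82, 2.61 and 2.63 CPM on food and 1.46, 1.53, 1.92 and 1.52 CPM under starvation (log2 fold change -0.97 ± 0.18, SE, adjusted p = 0.0020).

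GstD4 was rare. It had between 0.273 and 0.497 CPM on food and between 0.020 and 0.160 CPM under starvation (log2 fold change -2.05 ± 0.47, SE, adjusted p = 0.0083). All 4 food libraries and none of the starvation libraries (0 of 4) had 10 counts, so the count minimum itself selected for a higher food level. GstD5, GstD6 and GstD7 were not tested.

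GstD11, at the end of the cluster, went the other way. It had 1.90, 1.75, 2.17 and 1.38 CPM on food and 2.90, 2.85, 2.51 and 2.66 CPM under starvation, so that every starvation library was above every food library. It rose by 0.60 ± 0.16 (SE) on the log2 scale (adjusted p = 0.018), and did not pass without food replicate 2 (adjusted p = 0.052). GstD9, the second most abundant Delta gene, had a log2 fold change of -0.22 (95% confidence interval -0.42 to -0.03, adjusted p = 0.088), and passed without starvation replicate 3 and with the length trend taken out. GstD10 had one of -0.40 (adjusted p = 0.13), and GstD8 had one of 0.03 with an interval of -1.15 to 1.21, which leaves its direction undetermined. GstD8 had 18, 32, 26 and 2 counts in starvation replicates 1 to 4, and 18, 14, 20 and 21 on food.

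**Figure D4:**
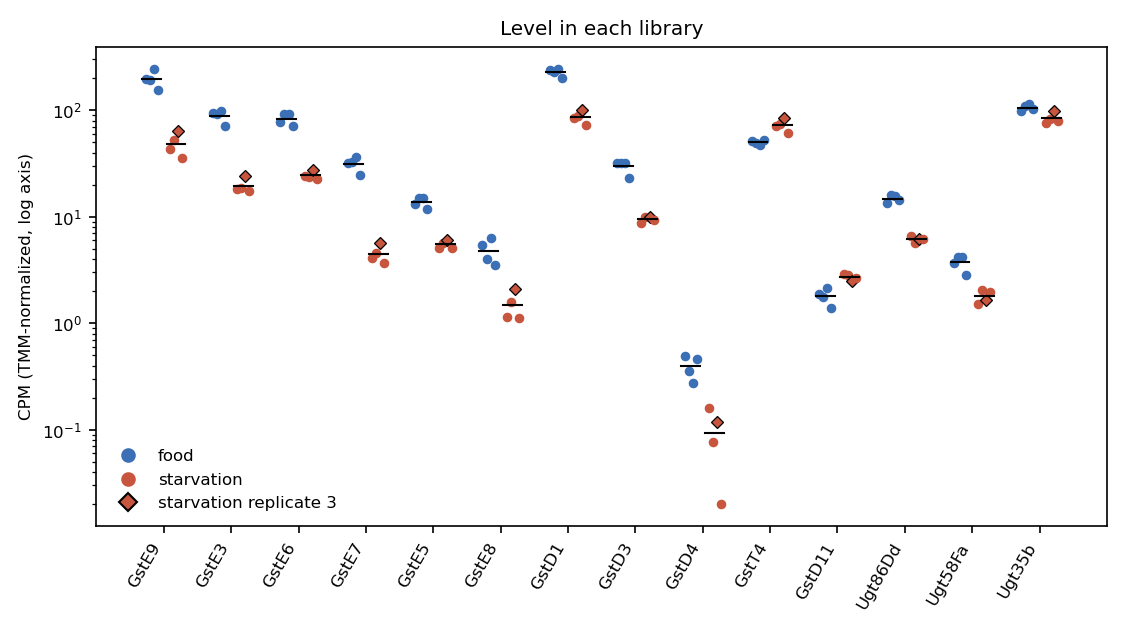
CPM on a log axis in each library for the GSTs and UGTs called with at least a 2-fold change, and for GstT4, GstD11 and Ugt35b. Blue points are food, red points are starvation, the diamond is starvation replicate 3 and black bars are means of 4 libraries. GstT4 and GstD11 were higher in every starvation library, and Ugt35b was the only gene shown whose conditions overlapped.

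Among the 3 Omega genes, which lie together on chromosome 3L, 1 was lower. GstO3 had 48.2, 54.0, 51.7 and 46.4 CPM on food and 31.9, 29.8, 34.7 and 28.5 CPM under starvation, without overlap. It was 1.60-fold lower (log2 fold change -0.68 ± 0.08, SE, adjusted p = 0.00013). Its neighbours GstO1 and GstO2 had log2 fold changes of -0.12 (95% confidence interval -0.39 to 0.14, adjusted p = 0.52) and -0.10 (-0.35 to 0.16, adjusted p = 0.61). Between GstO3 and GstO2 lies sepia (se), an Omega enzyme of eye pigment synthesis that the symbol rule does not take in. It had 57.6 to 67.5 CPM on food and 69.5 to 98.6 CPM under starvation, and was higher (log2 fold change 0.35 ± 0.11, SE, adjusted p = 0.039). GstO2 shares 61 bases with se, and the strand of counting was not stated. Among the other classes, GstE12 shares 33 bases with CG3894, GstE13 shares 6 with CG18659 and GstT2 shares 223 with CG12926.

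GstS1 is the single Sigma GST of the fly. It is known as an abundant protein of flight muscle that acts on a product of lipid peroxidation. GstS1 had 85.2, 68.1, 75.3 and 72.8 CPM on food and 42.0, 46.1, 38.8 and 32.9 CPM under starvation. It was 1.89-fold lower (log2 fold change -0.92 ± 0.11, SE, adjusted p = 0.00012), just short of the 2-fold margin. Of 7 muscle marker genes, none (0 of 7) passed the edgeR test, and 1 had an unadjusted p under 0.05. Of their estimates 5 were below 0, with a median log2 fold change of -0.245, and their mean summed CPM was 84.8% of that on food. The part of muscle in the fall of GstS1 was not tested.

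In the Theta class none of the 4 genes was called lower (0 of 4), 3 estimates were below 0 without passing, and GstT4, on the X chromosome, was higher. GstT4 had 51.0, 49.1, 47.6 and 52.5 CPM on food and 71.2, 74.8, 84.7 and 61.2 CPM under starvation. Every starvation library was above every food library. It rose 1.46-fold (log2 fold change 0.54 ± 0.10, SE, adjusted p = 0.0016), and kept its call in all 19 alternatives. The other 3 Theta genes had log2 fold changes between -0.20 and -0.04 and did not pass. On food GstT4 had 41.0 CPM per kb, well below GstD1 and GstE9. Under starvation it had 59.8 CPM per kb, against 61.7 for GstE9, 102.8 for GstD1 and 111.0 for GstE12, the highest GST in that condition.

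Zeta GSTs are known as the enzymes that isomerize maleylacetoacetate in the breakdown of tyrosine. GstZ1 and GstZ2 are neighbours on chromosome 3R, 268 bases apart. GstZ2, the more abundant per kilobase, had 39.7, 37.4, 44.0 and 41.2 CPM on food and 31.8, 37.8, 40.1 and 28.4 CPM under starvation, with overlap (log2 fold change -0.23 ± 0.11, SE, adjusted p = 0.14). GstZ1 had 5.85 to 8.27 CPM on food and 4.18 to 5.03 CPM under starvation and was lower (-0.60 ± 0.13, SE, adjusted p = 0.0048).

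Counted by library, 17 of the 31 GSTs tested had every starvation value below every food value, and 2 had every starvation value above. Over all genes tested these shares were 18.5% and 12.6%. Without GstD4, which passed the count minimum only through the food libraries, 16 of 30 GSTs had every starvation value below. For a gene without overlap, the exact two-sided permutation test of 4 against 4 libraries gave p = 0.0286, the smallest value it can give.

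The UGT genes are numbered by family in the deposited symbols, and the current RefSeq annotation writes all 17 differently. The family number is another one for 12 of them, and 3 differ only in letter case. Of the 17 genes, 9 lie in a cluster on chromosome 3R between 11151026 and 11177910. Within it Ugt35b and Ugt86Da were lower by small amounts and the other 6 tested genes did not pass.

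Ugt35b (RefSeq name Ugt35B1), known for expression in the antenna, was the most abundant UGT per kilobase. It had 98.2, 108.8, 113.7 and 103.2 CPM on food and 76.5, 83.7, 99.5 and 78.7 CPM under starvation. Starvation replicate 3 reached the range of the food libraries. The log2 fold change was -0.33 ± 0.10 (SE, adjusted p = 0.027), and the call was lost in 9 of 19 alternatives (highest adjusted p = 0.16), among them the fits without food replicate 2, 3 or 4 and without starvation replicate 1, 2 or 4. Its neighbour Ugt35a had a log2 fold change of -0.19 (adjusted p = 0.21).

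Ugt86Da (Ugt302C1) was the most abundant of the Ugt86 genes. It had 71.8, 76.2, 75.4 and 62.9 CPM on food and 60.9, 62.1, 55.2 and 52.3 CPM under starvation. The conditions did not overlap, though the lowest food library was close to the highest starvation library. Its log2 fold change was -0.31 ± 0.09 (SE, adjusted p = 0.020), and the call was lost in 5 of 19 alternatives (highest adjusted p = 0.086), among them the fits without food replicate 1, 2 or 3 and without starvation replicate 4.

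Ugt86Dd (Ugt35C1) had the largest called fall among the UGTs. It lies apart from the cluster, on chromosome 3R from 11126597 to 11128328, and is known for a naturally varying allele that affects the resistance of fly larvae to nicotine. Ugt86Dd had 13.4, 15.8, 15.7 and 14.3 CPM on food and 6.59, 5.69, 6.23 and 6.24 CPM under starvation. Libraries within a condition lay close together and the conditions were far apart. The gene was 2.40-fold lower (log2 fold change -1.26 ± 0.09, SE, adjusted p = 5.1e-06).

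Ugt58Fa (Ugt317A1), on chromosome 2R, was lower by just over 2-fold. It had 3.67, 4.19, 4.16 and 2.86 CPM on food and 1.52, 2.03, 1.67 and 1.96 CPM under starvation, without overlap. Its log2 fold change was -1.05 ± 0.17 (SE, adjusted p = 0.00080), with a 95% confidence interval of -1.42 to -0.69 that takes in falls of less than 2-fold.

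The 3 Ugt36 genes lie together on chromosome 2L, and of these Ugt36Bc (Ugt37D1) alone was well expressed. It had 47.0, 52.8, 53.7 and 45.7 CPM on food and 35.4, 34.1, 34.6 and 29.8 CPM under starvation. The conditions were clearly apart, with a log2 fold change of -0.57 ± 0.08 (SE, adjusted p = 0.00046). Ugt36Ba and Ugt36Bb had at most 0.392 and 0.238 CPM in a library, and only Ugt36Ba was tested, without passing.

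Of the 3 genes with Ugt37 in their deposited symbols, 2 were tested and neither passed. All 3 were near the lower limit of detection. Under RefSeq names the Ugt37 family also takes in Ugt36Bc (Ugt37D1) and CG5999 (Ugt37A3), which were both lower. It further takes in Ugt36Ba (Ugt37C2), which did not pass, and Ugt36Bb (Ugt37E1) and CG5724 (Ugt37A2), which were not tested. Of the 3 deposited Ugt37 genes, Ugt37b1 was the most abundant per kilobase. It had 0.994, 0.630, 1.11 and 0.627 CPM on food and 0.521, 0.498, 0.744 and 0.45 CPM under starvation. The conditions overlapped (log2 fold change -0.60 ± 0.28, SE, adjusted p = 0.15). Ugt86Dc had a larger estimate, -1.41 ± 0.62 (SE, adjusted p = 0.13), but at most 0.748 CPM in any library. Ugt86Dc had 6, 24, 16 and 0 counts in starvation replicates 1 to 4. The direction of neither Ugt37b1 nor Ugt86Dc was settled by these libraries.

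A further 18 genes of the table are UGTs by their RefSeq names but carry other symbols, and were not among the 52. Of 11 tested, 8 were lower and 1 was higher, against 16.6% and 9.97% of all genes tested, and their median was -0.73. CG5999 (Ugt37A3) had 11.6, 11.3, 15.7 and 10.5 CPM on food and 0.441, 0.766, 0.666 and 0.508 CPM under starvation, a 20.5-fold fall (log2 fold change -4.36 ± 0.20, SE, adjusted p = 6.7e-07). It exceeded every fall among the 52 genes. CG10178 (Ugt301D1) and CG17324 (Ugt36F1) were also lower by 2-fold (log2 fold changes -1.21, adjusted p = 3.1e-05, and -1.10, adjusted p = 1.1e-05). CG18869 (Ugt305A1) was higher by 2.29-fold (adjusted p = 0.011), from between 0.292 and 0.709 CPM on food to between 0.958 and 1.39 CPM under starvation.

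A list of other glutathione transferases and related proteins outside the symbol rule gave 4 genes, and all were called. Mgstl, a membrane-bound GST of the microsomes, had 82.7 to 107.8 CPM on food and 21.0 to 44.3 CPM under starvation and was lower (log2 fold change -1.47 ± 0.19, SE, adjusted p = 0.00023). Of the others, which carry GST domains, eEF1gamma (log2 fold change -0.39, adjusted p = 0.037) and gfzf (-0.33, adjusted p = 0.018) were lower and se was higher.

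Genes that supply and recycle glutathione changed less. Of 12 tested, 5 were lower, 2 were higher and none (0 of 12) changed by 2-fold, with a median of -0.28. Among all genes tested 16.6% were lower and 9.97% higher. The 2 subunits of glutamate-cysteine ligase, the first enzyme of glutathione synthesis, went in opposite directions. The catalytic subunit Gclc was higher (log2 fold change 0.30 ± 0.09, SE, adjusted p = 0.029) and the modifier subunit Gclm was lower (-0.58 ± 0.10, SE, adjusted p = 0.0012). Trxr-1, whose thioredoxin system reduces glutathione in flies, was lower (-0.59 ± 0.08, SE, adjusted p = 0.00028). The 12 genes also took in dob, a lipase, and CG10638, an aldo-keto reductase, which do not belong to glutathione supply, and Gss1 and Gss2, adjacent copies with nearly equal counts that cannot be told apart. Without dob and CG10638, 4 of 10 were lower.

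Of 10 genes listed for the supply of UDP-sugars, 5 were lower, 4 of them by 2-fold, and 2 were higher. The shares over all genes tested were 16.6% lower, 5.34% lower by 2-fold and 9.97% higher. Galt, an enzyme of galactose use, had a log2 fold change of -1.34 (adjusted p = 0.00023), and the hexokinase Hex-C had one of -1.14 (adjusted p = 0.0052). UGP, which makes UDP-glucose, fell by 0.82 on the log2 scale (adjusted p = 0.00043), whereas sgl, which oxidizes UDP-glucose to UDP-glucuronate, rose by 0.27 (adjusted p = 0.031). Also lower by 2-fold was Shmt, an enzyme of one-carbon metabolism that entered the list by a mistaken identifier. Without it 4 of 9 were lower.

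Regulators of detoxification genes were listed with 12 genes, of which 3 were lower, 2 were higher and none changed by 2-fold (0 of 12). Among all genes tested 16.6% were lower and 9.97% higher, so that these counts were not far from the general share. CncC, the product of cnc, drives GST genes together with maf-S and is held back by Keap1. The levels of cnc and Keap1 were lower (log2 fold changes -0.45, adjusted p = 0.0047, and -0.40, adjusted p = 0.0020), and that of maf-S was higher (0.71, adjusted p = 0.0068). The activity of these proteins was not measured.

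Of 18 transporters tested in a list of export pumps, 8 were lower and 2 were higher, against 16.6% and 9.97% of all genes tested. The list took in bw and st, which carry eye pigment precursors, and Sur, a sulfonylurea receptor, and without these 7 of 15 were lower. The P-glycoprotein Mdr49 had a log2 fold change of -1.19 (adjusted p = 4.9e-06) and CG5789 one of -1.06 (adjusted p = 2.0e-05). CG31792 was also called lower by 2-fold, but it passed the count minimum only through the food libraries, with 19 to 36 counts on food and 0 to 5 under starvation. Other detoxification enzymes, mostly esterases and epoxide hydrolases, were lower in 13 of 15 cases, with a median of -0.78. The largest of these falls was in Est-6, a carboxylesterase (-2.10, adjusted p = 7.6e-05). The esterases alpha-Est10, alpha-Est5 and alpha-Est2 were also lower by 2-fold, with log2 fold changes of -1.76, -1.49 and -1.27. Cytochrome P450s, the most similar large family, were lower in 36 and higher in 9 of 79 tested genes, with a median of -0.25.

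Markers of some cell types moved with the GST levels. All 7 glia markers were lower, with a median of -0.61 and a summed level of 2764 to 3100 CPM on food and 1696 to 2025 CPM under starvation. Of 11 fat body markers 9 were lower and 1 was higher, with summed levels of 7629 to 12130 CPM on food and 1855 to 2658 CPM under starvation. Lsp2 and apolpp held most of the food sum, with means of 3905 and 3234 CPM on food. Their means under starvation were 14.9 and 462.6 CPM. The median log2 fold change of the fat body markers was -1.14. Several of the fat body markers also serve lipid storage and nutrient sensing. Of the 7 hemocyte markers all were lower, with summed levels of 1259 to 1964 CPM on food and 233.1 to 385.7 CPM under starvation. Nplp2 alone held most of this sum, with means of 1380 CPM on food and 159.6 CPM under starvation. The smallest fall, in Pxn, was 1.29-fold. No neuron marker passed (0 of 7), and of 8 photoreceptor markers 3 were higher (ninaC, trp and trpl). The summed level of all 8, most of it from genes that did not pass, was 23750 to 26800 CPM on food and 28300 to 35560 CPM under starvation. Of 8 gut markers tested 2 were lower. The summed level of the gut markers was 79.3 to 117.2 CPM on food and 15.2 to 69.3 CPM under starvation, nearly all from Amy-d, Amy-p and LManI. Of the markers tested, 1 of 6 for antennal sensilla, 1 of 5 for Malpighian tubules, 1 of 6 for the reproductive tract and 2 of 4 for oenocytes were lower, and 0 of each were higher. Over all genes tested 16.6% were lower and 9.97% higher. The reproductive tract gene was Est-6, which was also counted among the other detoxification enzymes. The antennal gene, Obp19a, and 1 of the oenocyte genes, eloF, had at most 6 counts under starvation and passed the count minimum only through the food libraries. All defining markers of neurons, glia, photoreceptors, fat body and hemocytes were above 0 in at least 1 library. The part of these cell types in the GST and UGT differences was not tested.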

How the data were processed

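RNA sequencing measured 4 food and 4 starvation samples of male heads, grouped by the condition and replicate in their labels. Per the labels and methods, the authors aligned the reads with STAR (2.6.1b), joined the flow cells of each sample and obtained the deposited raw counts per gene from ASpli, with no scaling. The table also gave release 6 coordinates and exonic lengths. One row without a gene name (0.0042% to 0.0054% of counts) was left out.

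In edgeR 4.0.16 under R 4.3.3, a quasi-likelihood model with TMM factors was fitted to the 12130 genes with at least 10 counts in 4 or more of the 8 libraries, with Benjamini-Hochberg adjustment over all of them. SE were taken from the fold change and its F statistic. The common biological coefficient of variation was 0.138. Where no other tool is named, adjusted p-values are from this test. Replicates were separate groups of 30 flies, and no pair of libraries agreed within counting noise. The test was tried on simulated data.

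The members and gene lists were chosen with earlier results of these data known. Values in every library are given for members called with at least a 2-fold change and for the highest member of each class per kilobase. Genes outside both families were to be named where called with a 2-fold change, and those named below that size were chosen after their values were seen. One listed gene is not reported here by name. The lists cover glutathione supply, UDP-sugars, regulators, pumps, other enzymes and cell type markers. Gene symbols of the current annotation come from RefSeq (Release 6 plus ISO1 MT). Alternatives were DESeq2 1.42.0, limma-voom (limma 3.58.1), other scalings and filters, a replicate block, single libraries left out, abundant or mitochondrial genes left out, a length trend removed and a test against 2-fold. Promoter and protein sequences were not analysed here.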

Additional observations from a re-analysis of the deposited data

Results flagged for a closer look

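Among 90 sets of 4 libraries (45 genes in each condition), 4 had a library whose distance from the others was larger than chance gives in 1 of 20 sets, close to the 4.5 that chance alone would give. GstD2 had 1.92 CPM in starvation replicate 3 (1.919 before rounding), against 1.46 to 1.53 CPM in the other starvation libraries. GstD3 had 23.0 CPM in food replicate 4, against 31.8 to 32.1 CPM in the other food libraries. GstE13 had 15.96 CPM in food replicate 3, against 13.3 to 13.7 CPM in the others. Ugt86Dh had 0.441 CPM in starvation replicate 1, against 0.606 to 0.632 CPM in the others.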

How the results depend on the processing

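Over 19 alternatives the 25 called genes gave 475 values, of which 456 kept direction and call, 19 fell short of the threshold and 0 changed sign. Of the 25 genes, 21 kept their call throughout, and the 4 that lost it were GstD11, GstE10, Ugt35b and Ugt86Da. Upper-quartile scaling moved the median of all genes from -0.01 to 0.11. It left 3 UGTs lower, 1 of them by 2-fold, and gave -0.199 for the UGT median against -0.324, 0.044 for the median of the Theta genes, 0.029 for GstO2, 0.002 for GstT2 and 0.086 for GstT3. Without a count minimum the UGT median was -0.519. A test against a change of 2-fold called 6 GSTs and 0 UGTs, fewer by its construction. With limma-voom GstD8 was at -0.446 and Ugt37a1 at -0.048.

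With each library left out in turn, between 3 and 6 UGTs were lower, 1 or 2 of them by 2-fold, and the UGT median lay between -0.462 and -0.297. The UGTs lower by 2-fold were 1 without food replicate 2, food replicate 3 or starvation replicate 1. The GSTs called higher were 1 or 2. Genes without a call changed sign, with GstD8 between -0.298 and 0.406, GstE13 between -0.011 and 0.148, GstT3 between -0.102 and 0.034, Ugt36Ba between -1.018 and 0.092 and Ugt37a1 between -0.313 and 0.297. The cause was not tested.

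Samples of the 2 conditions with the same replicate number had deviations that correlated at 0.0168, 0.0565, 0.126 and 0.157, so the numbers were not taken to pair them, and 3 of 4 food samples correlated best with their own number. With the replicate block 18 GSTs and 5 UGTs were lower, as without it, GstD8 was at -0.122 and Ugt37a1 at -0.01.

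Depth limits the rare genes. GstD5, GstD6, GstD7, GstE4, Ugt36Bb, Ugt37c1 and Ugt86Dg could not be tested, and intervals were wide for GstD4, GstD8, Ugt36Ba, Ugt86Dc and Ugt86Dj. The part of spread between libraries in these wide intervals was not tested. Read sharing between near-identical genes, strand and the makeup of the heads were not resolved by these counts.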
